A study of Macaca mulatta with 28 samples.

Results

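Kinesins, cytoplasmic dynein and dynactin move cargo along microtubules, and their transcripts were followed here in rhesus macaques, in the ventral tegmental area (VTA) of the midbrain. Members were chosen by gene symbol alone: every KIF symbol, KLC1 to KLC4, and the symbols of cytoplasmic dynein chains (DYNC1, DYNC2, DYNLL, DYNLR, DYNLT) and dynactin subunits (DCTN1 to DCTN6). The deposited table held 72 such genes among 16886 rows, and 66 of them had at least 5 counts in at least 3 animals, out of 13769 rows that passed the same filter. Of the 72, 47 carry KIF or KLC symbols (43 kept), 19 are dynein chains (17 kept) and 6 are dynactin subunits (6 kept). KIFAP3, an adaptor that links kinesin-2 to cargo, and KIFBP, a kinesin-binding protein, matched by symbol and are not motors themselves.

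Bulk RNA came from VTA tissue punches, with 1 library per animal, and the VTA holds the cell bodies of dopamine neurons that project to the forebrain. The 17 drinkers were adult males that had taken ethanol voluntarily over 12 months of open access followed by periods of renewed access lasting 3 months each, while the 11 controls were calorically yoked or housing controls without ethanol. All 28 animals were wild type, and the samples were taken 30 days into a last period of abstinence. The labels sort drinkers by intake into 9 very heavy, 5 heavy, 2 binge and 1 low drinker. The study ran in 2 cohorts, with 8 drinkers and 8 controls in cohort 1 and 9 drinkers and 3 controls in cohort 2, and this assignment comes from the study's own records rather than the labels. Total counts lay between 12303914 and 27338669 per animal. All 12 listed dopamine neuron markers passed the filter, and their summed level ran from 39.4 to 1749 CPM (counts scaled to library size) in drinkers and from 38.2 to 1944 in controls, so the punches differed widely in dopamine neuron RNA within both groups.

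Conventional kinesins walk mainly toward the plus ends of microtubules, which in axons point to the terminals, and so carry vesicles and mitochondria outward. Cytoplasmic dynein 1, with dynactin as its activator, walks toward minus ends and brings endosomes and survival signals back to the cell body. Long axons such as those of dopamine neurons depend on both directions, while other family members work in cilia or in dividing cells.

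The kinesin motor is recognized by a P-loop that binds ATP. A fixed form of this motif, 8 codons long, was searched in RefSeq transcripts of Mmul_10. It was found for 32 of 44 KIF symbols and for 34 of 21053 symbols in all (0.1615%). The KIF symbols without it include KIFAP3 and KIFBP, which are not motors. They also include KIF18A, KIF20A, KIF22 and KIF23, and whether these hold a P-loop of another form was not tested. The stretches below are from kinesins whose levels are given further on, and capitals mark the 8 codons of the P-loop within coding sequence. They are shown because the same motif is written with very different GC content, a property that returns in the comparison of the cohorts.
KIF5B: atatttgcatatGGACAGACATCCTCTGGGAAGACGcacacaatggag
KIF5C: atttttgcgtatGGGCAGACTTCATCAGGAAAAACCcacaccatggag
KIF3A: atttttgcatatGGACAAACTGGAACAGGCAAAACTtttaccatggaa
KIF3B: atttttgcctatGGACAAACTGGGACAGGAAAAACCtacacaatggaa
KIF3C: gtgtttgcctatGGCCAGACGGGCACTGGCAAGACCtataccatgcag
KIF21B: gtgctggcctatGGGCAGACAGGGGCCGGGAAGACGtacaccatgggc

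GC content of these 48 bases was 35.4% in KIF3A and 66.7% in KIF21B. The whole RefSeq transcripts stood at 40.29% and 59.95%. KIF3A lies at chr6:130119052-130176929 on the minus strand, KIF3C at chr13:82983078-83037860 on the plus strand and KIF21B at chr1:58397772-58452484 on the minus strand (Mmul_10).

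A count in every animal was found for 36 of the 66 kept members, and these carry the quantitative comparisons. Each row of the table is 1 Ensembl transcript with 1 symbol, so its value leaves out reads that Salmon gave to a gene's further transcripts. Levels are given as CPM, the counts scaled to a common library size with TMM factors, and between genes only as CPM per kilobase of the RefSeq transcript, since lengths of the listed transcripts were not used here. Values after ± are SD over the 28 animals.

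Per kilobase, the light chains that serve as shared hubs of dynein and other complexes stood highest. DYNLL2 reached 386 ± 34.8 CPM per kilobase and DYNLL1 368 ± 56.7, a gap smaller than either spread. DYNLRB1, a roadblock light chain, stood at 133 ± 12.7, and DYNC1H1, the heavy chain that is the dynein 1 motor itself, at 107 ± 10.6. The dynein 1 subunits that join the heavy chain to cargo were lower: DYNC1LI1 stood at 21.4 ± 3.76, the intermediate chain DYNC1I1 at 12.0 ± 5.47 and its paralog DYNC1I2 at 2.21 ± 1.25.

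Among kinesins, KIF3C of the kinesin-2 family led with 76.6 ± 14.2 CPM per kilobase. The kinesin-1 heavy chains KIF5B and KIF5C, which carry vesicles and mitochondria into axons, stood at 48.9 ± 7.07 and 41.9 ± 5.80. Their light chains KLC2 and KLC1 stood at 57.9 ± 15.3 and 25.7 ± 6.63. KIF1A, the kinesin-3 that carries synaptic vesicle precursors, stood at 19.2 ± 2.99. Within kinesin-2, KIF3B (12.6 ± 1.28) and the adaptor KIFAP3 (13.7 ± 3.68) were alike, while KIF3A, their shared partner, stood at 3.80 ± 1.35. In dynactin, DCTN1, the large subunit that binds dynein and microtubules, stood at 66.5 ± 15.3, close to DCTN6 at 64.3 ± 7.02. KIF11, which drives spindle assembly in dividing cells, was lowest at 0.184 ± 0.121.

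The spread between animals differed widely among members. The coefficient of variation over 28 animals was 9.01% for DYNLL2, 9.55% for DYNLRB1, 9.94% for DYNC1H1, 10.1% for KIF3B and 15.4% for DYNLL1. It was 35.5% for KIF3A, 38.2% for KIF21B, 45.6% for DYNC1I1, 56.8% for DYNC1I2 and 65.7% for KIF11.

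**Figure D1:**
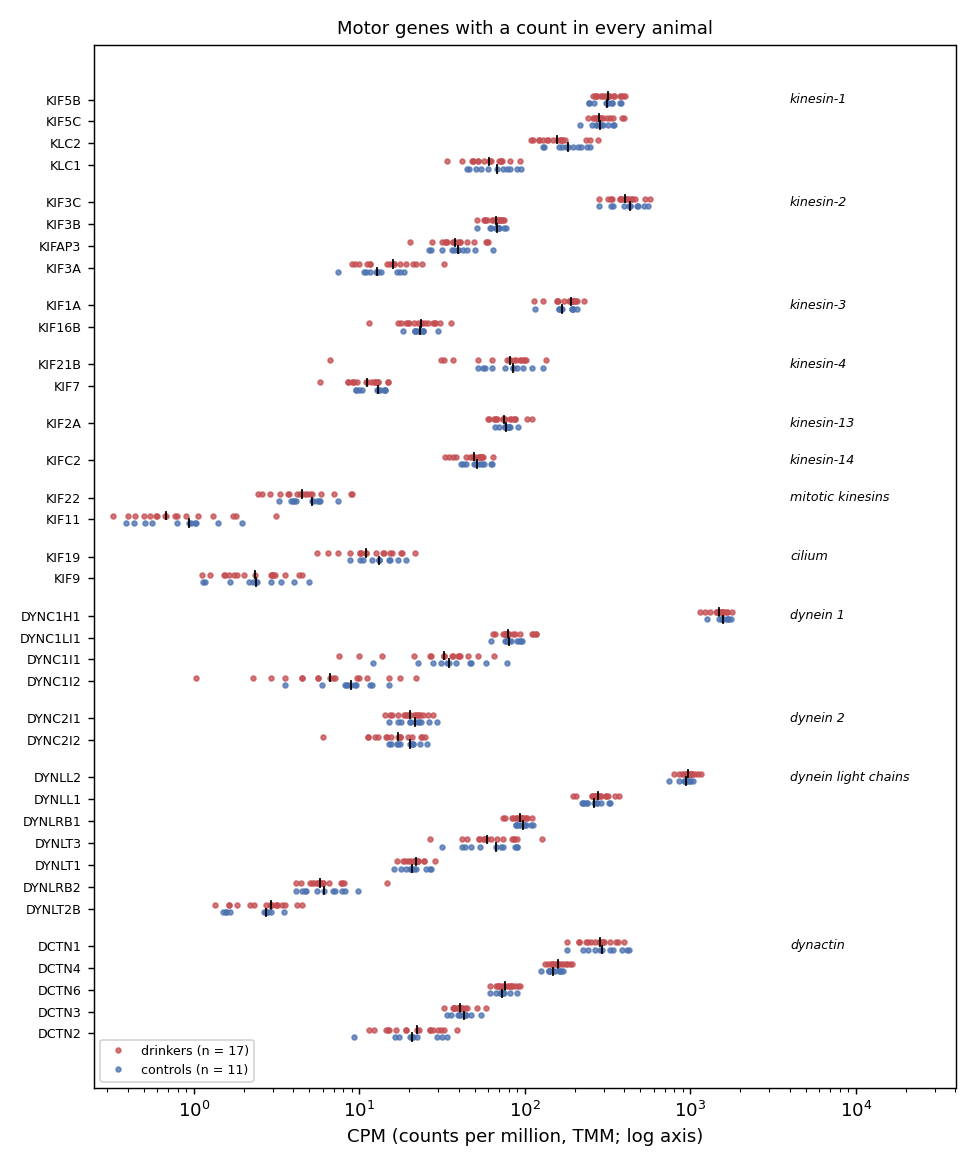
CPM of the 36 motor genes with a count in every animal, on a log axis, with 1 point per animal, a black tick at the group median and genes grouped by role. Drinkers (red, n = 17) and controls (blue, n = 11) overlap for every gene shown, and DYNC1H1 stands at 1143 to 1786 CPM in drinkers and 1262 to 1771 in controls.

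The first comparison asked whether these transcripts differed between drinkers and controls over both cohorts. None of the 66 members passed an adjusted p of 0.05 by edgeR's quasi-likelihood test, and none of the 13769 transcripts did (0%). At an unadjusted p under 0.05 there were 2 members, against 4.57% of all transcripts, and both were listed at 0 in most animals. DESeq2 (0.0799% of all transcripts) and limma-voom also called 0 members, with 1 member each at an unadjusted p under 0.05 (4.42% and 5.32% of all transcripts). The median log2 fold change was 0.01 over the members and 0.00 over all transcripts. With cohort as a covariate edgeR called 0 members and 0 transcripts. In that fit 4 of 66 members had an unadjusted p under 0.05, against 7.06% of all transcripts.

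For DYNC1H1 the lowest, median and highest CPM were 1143, 1493 and 1786 in drinkers and 1262, 1568 and 1771 in controls, with a log2 fold change of -0.08 ± 0.06 (SE, unadjusted p = 0.198). KIF5B ranged from 259 to 405 CPM around a median of 318 in drinkers and from 243 to 380 around 314 in controls, a log2 fold change of 0.04 ± 0.08. For both motors the ranges of drinkers and controls overlapped over most of their length. DCTN1 ranged from 180 to 396 CPM around a median of 286 in drinkers and from 181 to 424 around 294 in controls. KIF1A spanned 113 to 228 CPM around a median of 189.9 in drinkers and 115 to 208 around 167 in controls. The largest fold among kinesin-2 genes was that of KIF3A, at 0.31 ± 0.18 (unadjusted p = 0.099), with 9.02, 16.0 and 32.6 CPM in drinkers and 7.45, 12.8 and 18.6 in controls.

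The cohorts were then taken apart, since the estimates of many members had opposite signs in them. Of the 36 members with a count in every animal, 24 had a higher estimate in the drinkers of cohort 1 and 12 in the drinkers of cohort 2. The estimate was positive in cohort 1 and negative in cohort 2 for 21, the reverse for 9, positive in both for 3 and negative in both for 3. Opposite signs were thus found for 83.3% of these members and for 59.7% of all 8329 transcripts with a count in every animal, and the order positive then negative for 58.3% and 28.9%, as descriptions with no test. The cohorts share no animals. The difference of the drinking effect between the cohorts was tested as an interaction over all 28 animals. None of 66 members was called (0.0145% of all transcripts were), and 12 had an unadjusted p under 0.05, 6 in each direction, against 9.62% of all transcripts. DESeq2 called 1 member, DYNC1LI1 (adjusted p = 0.0324), where it called 0.937% of all transcripts, and limma-voom called 0.

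DYNC1LI1, a light intermediate chain that couples dynein to cargo adaptors, had the lowest p in that test. In cohort 1 its lowest, median and highest CPM were 75.9, 102 and 118 in drinkers and 62.9, 78.1 and 96.1 in controls. In cohort 2 they were 64.4, 76.3 and 85.1 in drinkers, while the 3 controls had 90.3, 94.7 and 82.3. Drinkers thus stood higher by the median in one cohort and lower in the other, with overlapping ranges in both. The log2 fold change was 0.31 ± 0.11 in cohort 1 and -0.24 ± 0.09 in cohort 2, a difference of -0.55 ± 0.16 (unadjusted p = 0.00178, adjusted p = 0.255). The gene lies at chr2:15141444-15191428 on the plus strand (Mmul_10).

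KIF3A, the kinesin-2 subunit that pairs with KIF3B or KIF3C in axons and in cilia, ranged in cohort 1 from 11.6 to 32.6 CPM around a median of 20.3 in drinkers and from 7.45 to 18.6 around 12.1 in controls. In cohort 2 drinkers ranged from 9.02 to 16.3 CPM around 14.7, and the controls had 17.5, 17.0 and 13.6. Its log2 fold change was 0.72 ± 0.22 in cohort 1 (unadjusted p = 0.00425, adjusted p = 0.221) and -0.28 ± 0.21 in cohort 2. The difference was -1.001 ± 0.32 (unadjusted p = 0.00434, adjusted p = 0.291). DESeq2, run within cohorts as an alternative added after the data were seen, called KIF3A in cohort 1 at an adjusted p of 0.0359.

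DYNLT3, a light chain of the Tctex family encoded at chrX:37630339-37639070 on the minus strand, ranged in cohort 1 from 41.8 to 127 CPM around 84.5 in drinkers and from 31.7 to 90.1 around 50.4 in controls. In cohort 2 the drinkers ranged from 26.8 to 68.05 CPM around 55.6, and the controls had 87.4, 73.5 and 67.3. Only the lowest control of cohort 2 lay within the range of its drinkers. The log2 fold change was 0.47 ± 0.23 in cohort 1 and -0.52 ± 0.20 in cohort 2, a difference of -0.99 ± 0.34 (unadjusted p = 0.00724). The remaining members with a count in every animal and a negative difference at an unadjusted p under 0.05 were DCTN4 (-0.30 ± 0.11) and DCTN6 (-0.30 ± 0.12), which belong to the pointed end of dynactin, and KIF2A (-0.38 ± 0.16), which shortens microtubules at their ends. Without control 9 the difference for DCTN6 was -0.20 (unadjusted p = 0.136).

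In the opposite direction, KIF21B, a kinesin-4 that also slows microtubule growth, had 6.67, 44.4 and 94.9 CPM in cohort 1 drinkers and 52.0, 87.1 and 129.7 in controls. In cohort 2 its drinkers had 77.9, 93.0 and 135 CPM, and the controls 76.4, 57.7 and 85.1. The log2 fold change was -0.78 ± 0.37 in cohort 1 and 0.39 ± 0.16 in cohort 2, a difference of 1.17 ± 0.51 (unadjusted p = 0.0301). Differences of the same sign were seen for KIF7 (0.53 ± 0.24), a kinesin of the ciliary hedgehog pathway, and KIFC2 (0.42 ± 0.18), a minus-end kinesin of neurons. With each of the 3 controls of cohort 2 left out in turn, an unadjusted p under 0.05 was found in 1 of 3 fits for KIF21B, KIF7 and KIFC2, in 2 of 3 for KIF2A and DCTN6, and in 3 of 3 for DYNC1LI1, KIF3A, DYNLT3 and DCTN4.

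**Figure D2:**
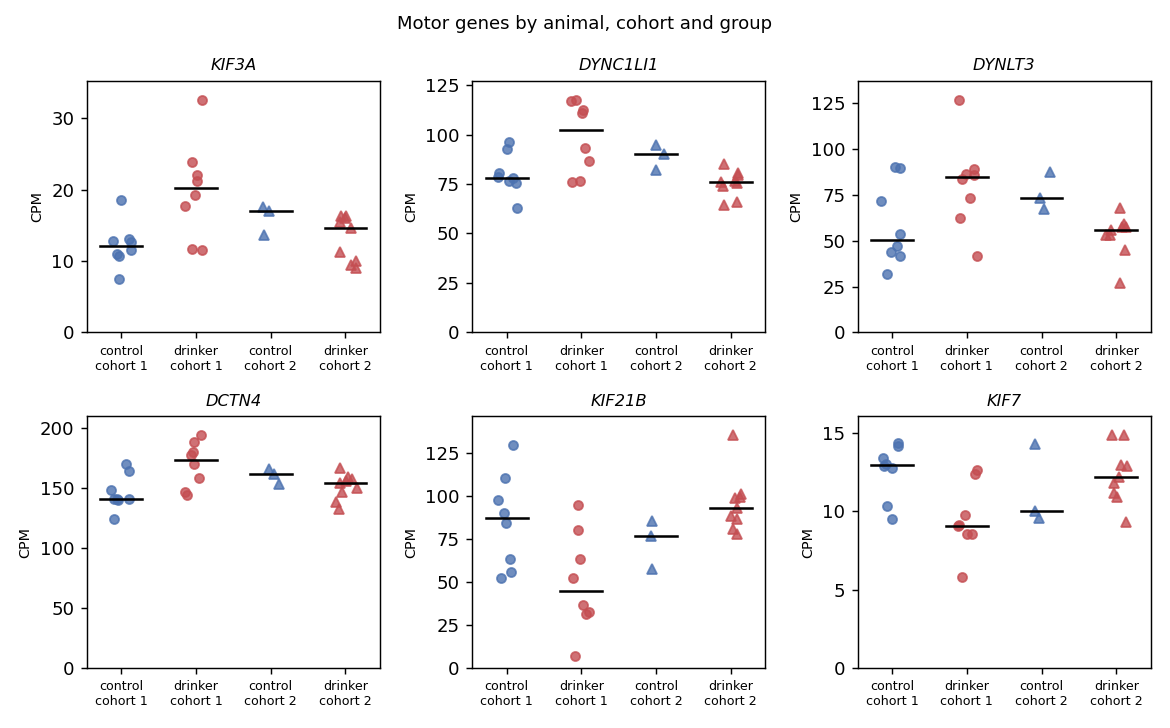
CPM of 6 motor genes in each animal, by group and cohort, with a black bar at the median. KIF3A, DYNC1LI1, DYNLT3 and DCTN4 have a higher median in drinkers than in controls of cohort 1 and a lower one in cohort 2, while KIF21B and KIF7 show the reverse.

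By role, the estimates were as follows, with no test between roles. All 4 kinesin-2 genes with a count in every animal (KIF3A, KIF3B, KIF3C and KIFAP3) had positive estimates in cohort 1, with a median log2 fold change of 0.17, and negative ones in cohort 2, with a median of -0.29. The 4 such kinesin-1 genes (KIF5B, KIF5C, KLC1 and KLC2) had medians of 0.06 and -0.23, and the 5 dynactin subunits 0.20 and -0.10, again positive in each gene of cohort 1 and negative in each of cohort 2. The cohort 1 estimate of KLC2 was 0.00 ± 0.18 and lay between -0.10 and 0.07 with 1 animal left out. Of the 4 dynein 1 genes, 2 were positive in cohort 1 and 0 in cohort 2, and of the 7 dynein light chains 6 were positive in cohort 1 and 4 in cohort 2. Both genes each of dynein 2 and kinesin-3 were negative in cohort 1 and positive in cohort 2. The 2 kinesin-4 genes (KIF7 and KIF21B) had medians of -0.59 and 0.26. Of the 10 cilium genes, some of which also belong to other roles, 5 were positive in cohort 1 and 5 in cohort 2. Their medians were -0.04 and -4.2e-05. The 2 mitotic kinesins were positive in cohort 1 and negative in cohort 2. Kinesin-13 and kinesin-14 had 1 such gene each, KIF2A (0.17 and -0.21) and KIFC2 (-0.30 and 0.12). Over all transcripts tested the median was 0.00 in cohort 1 and 0.01 in cohort 2.

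Within cohort 1 alone, none of 61 members was called (0.0382% of 13086 transcripts were), 9 had an unadjusted p under 0.05 against 10.2% of all, DESeq2 called 1 (1.8% of all transcripts) and limma-voom 0. The 9 included KIF3A, DCTN4, DYNC1LI1, DCTN6, KIF7, KIFC2 and KIF21B, while DYNLT3 (unadjusted p = 0.0624) and KIF2A (unadjusted p = 0.107) were not among them. They also included DYNC2I2, an intermediate chain of the dynein that works in cilia, with 6.06, 13.7 and 24.9 CPM in drinkers and 15.1, 20.8 and 25.7 in controls. Its log2 fold change was -0.51 ± 0.21. The ciliated or ependymal marker score was also lower in these drinkers, at -0.436 ± 0.458 (SD) against 0.129 ± 0.360 (exact permutation p = 0.0165, adjusted over 36 comparisons p = 0.149), and its part in the value of DYNC2I2 was not tested. With each of the 16 animals of cohort 1 left out in turn, the unadjusted p stayed under 0.05 in 12 of 16 fits for DYNC2I2. It did so in 10 for KIFC2, 7 for KIF21B and 16 for KIF3A, DCTN4, DYNC1LI1, DCTN6 and KIF7. Within cohort 2, none of 60 members was called (0% of 12785 transcripts), 7 had an unadjusted p under 0.05 against 3.76% of all, and neither DESeq2 (0.172% of all transcripts) nor limma-voom called a member. These 7 included DYNC1I1 (-0.64 ± 0.25), KIF3C (-0.30 ± 0.13) and KLC2 (-0.40 ± 0.18). Without control 10 the estimates were -0.25 for DYNC1I1 (unadjusted p = 0.353) and -0.17 for KIF3C (unadjusted p = 0.28), and that of KIF21B was 0.25 (unadjusted p = 0.176). Without control 9 that of KLC2 was -0.26 (unadjusted p = 0.224). KIF3C had 282, 379 and 462 CPM in the cohort 2 drinkers and the controls had 558, 429 and 428.

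**Figure D3:**
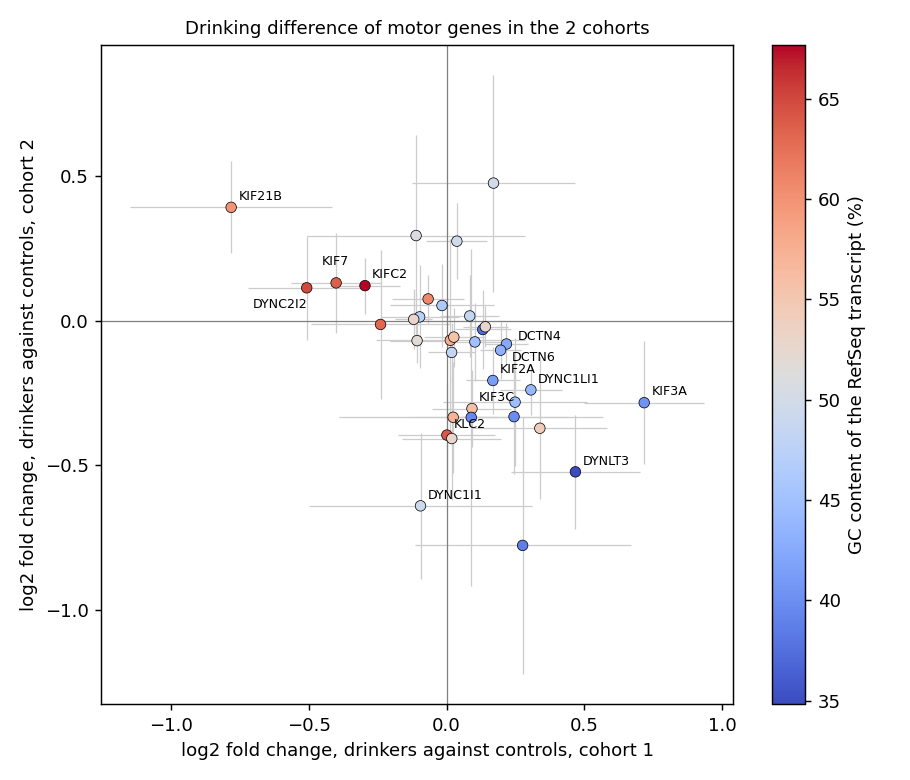
Log2 fold change of drinkers against controls in cohort 1 (x axis) and cohort 2 (y axis) for the 36 motor genes with a count in every animal, with bars of 1 SE and colour giving the GC content of the RefSeq transcript. Names mark genes with an unadjusted p under 0.05 in either cohort or in the interaction, and 21 of the points lie at the lower right, positive in cohort 1 and negative in cohort 2.

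A pair of library properties moved with this split. The first was GC content. All 12 members with a RefSeq transcript under 45% GC had a positive estimate in cohort 1 (median 0.23) and a negative one in cohort 2 (median -0.26). Of the 11 members above 55% GC, 5 were positive in cohort 1 (median -0.07) and 5 in cohort 2 (median -0.01). Across the 36 members the log2 fold change had a Pearson r of -0.713 with GC content in cohort 1 and 0.390 in cohort 2, and across 8210 transcripts with a count in every animal r was -0.418 and 0.0562. Genes are not independent replicates, so these are descriptions. Per library, the slope of counts on GC content (log2 units per 10 percentage points) was -0.0645 ± 0.0489 (SD) in the 8 drinkers of cohort 1 and 0.0642 ± 0.0647 in its 8 controls (exact permutation p = 0.00109, adjusted over 36 comparisons p = 0.0392). In cohort 2 it was 0.0043 ± 0.0402 and -0.0122 ± 0.0375 (exact permutation p = 0.545). With each library's GC trend removed, 10 of the 12 under 45% GC stayed positive in cohort 1 (median 0.13) and 11 stayed negative in cohort 2. The r with GC content was then -0.408 over the members and -0.0433 over all transcripts in cohort 1. In cohort 2 it was 0.348 and 0.00255. The members at an unadjusted p under 0.05 then numbered 2 of 61 in cohort 1 (6.44% of all transcripts), 8 of 60 in cohort 2 (3.91%) and 8 of 66 in the interaction (7.55%). The interaction was then -0.46 ± 0.16 for DYNC1LI1, -0.86 ± 0.32 for KIF3A and -0.74 ± 0.31 for DYNLT3, each at an unadjusted p under 0.05. It was 0.18 ± 0.17 for KIFC2, -0.20 ± 0.12 for DCTN6 and -0.19 ± 0.10 for DCTN4, and it no longer had such a p for these nor for KIF2A, KIF7 and KIF21B. For KIF21B it stayed at 1.035 ± 0.52 (unadjusted p = 0.0548), and it was 0.37 ± 0.23 for KIF7 and -0.24 ± 0.14 for KIF2A. KIF3C (-0.47 ± 0.21, unadjusted p = 0.0326) and KLC2 (-0.57 ± 0.26, unadjusted p = 0.0378) had an unadjusted p under 0.05 with this correction only.

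The second was the level of neuron markers. A neuron score was formed as the mean z-score of 9 of 10 listed markers that passed the filter (SNAP25, SYT1, STMN2, NEFL, NEFM, NEFH, UCHL1, SYP and ENO2, without RBFOX3), and their summed level ran from 4315 to 28290 CPM in drinkers and 4202 to 13460 in controls. In cohort 1 the score was 0.486 ± 0.554 (SD) in drinkers and -0.251 ± 0.682 in controls (exact permutation p = 0.034, adjusted p = 0.245). In cohort 2 it was -0.324 ± 0.396 and 0.346 ± 0.473 (exact permutation p = 0.0409, adjusted p = 0.245). With neuron and oligodendrocyte scores as covariates, 5 of 66 members had an unadjusted p under 0.05 in the interaction, against 5.35% of all transcripts, and the median over the members was 0.12 in place of 0.00. DCTN6 and KIFC2 were among the 5, while DYNC1LI1, KIF3A, DYNLT3, DCTN4, KIF2A, KIF21B and KIF7 were not. The difference for DYNC1LI1 was then -0.22 ± 0.15, for KIF3A -0.58 ± 0.37 and for DYNLT3 -0.43 ± 0.35. For KIF7 it was 0.51 ± 0.29, where it had been 0.53 ± 0.24. For KIF21B it was 0.65 ± 0.57, for DCTN4 -0.20 ± 0.13 and for KIF2A -0.19 ± 0.18. The sign turned for KIF3C (-0.40 to 0.16), KLC2 (-0.40 to 0.27) and DYNC1I1 (-0.55 to 0.49). Without the covariates and with 1 control of cohort 2 left out, the difference for DYNC1I1 lay between -0.79 and -0.16. For KIF3C it lay between -0.46 and -0.26 and for KLC2 between -0.59 and -0.27. Within cohort 1 the estimates with these covariates were -0.19 ± 0.11 for KIF3C and -0.36 ± 0.15 for KLC2 (unadjusted p = 0.0301), and within cohort 2 they were -0.03 ± 0.12 and -0.10 ± 0.21. These covariates and the GC correction were added after the data were seen. How far either property accounts for the motor gene differences was not tested. In bulk tissue, fewer cells of a type and less RNA per cell cannot be told apart.

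Across animals, several transport genes followed the neuron markers. Correlations were computed for 66 members with 8 cell type marker scores, 528 pairs in all, and 9 passed an adjusted p of 0.05. Of these, 8 were positive correlations with the neuron score. An r of that size was found for 8 of 66 members against 2.8% of all transcripts, and for 8 of 36 against 4.48% where only transcripts with a count in every animal are considered. The strongest was KIF3C, with Pearson r = 0.817 and Spearman rho = 0.814 (n = 28). The permutation p was 1e-05 for both, the smallest 100000 permutations can give, with an adjusted value of 0.00132 for r and 0.00264 for rho. Without the 2 animals farthest from the median score r was 0.839, and it was 0.787 in cohort 1 and 0.902 in cohort 2.

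The same score had an r of 0.777 with DYNC1LI1, 0.760 with DCTN2, which holds the dynactin shoulder together, and 0.750 with DCTN1. It had an r of 0.701 with KIFAP3, 0.678 with DYNLT3, 0.671 with KLC2 and 0.612 with KIF3A. Spearman's rho for these 7 ran from 0.576 for KIFAP3 to 0.822 for DYNC1LI1, and by rho KIFAP3 was no longer called (adjusted permutation p = 0.0719). By rho KIF21B was called with a negative sign (rho = -0.637, adjusted permutation p = 0.0264), with r = -0.505 over all animals, -0.461 in cohort 1 and -0.690 in cohort 2. Every one of the 8 correlations was positive within each cohort, from 0.603 to 0.787 in cohort 1 and from 0.587 to 0.902 in cohort 2. Without the 2 farthest animals their r lay between 0.519 and 0.839. KIF5B and DYNC1H1 were not among them.

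DCTN1 was also the 1 member called with another score, with r = -0.658 against oligodendrocyte markers (n = 28, permutation p = 0.0001, adjusted p = 0.00754) and rho = -0.598 (permutation p = 0.00108, adjusted p = 0.0518), so that the call was lost by rho. An r of that size with this score was found for 0.421% of all transcripts. The r of DCTN1 was -0.699 in cohort 1, -0.750 in cohort 2 and -0.609 without the 2 farthest animals, where no pair with this score was called. By rho DYNC1I1 was the member called with the oligodendrocyte score (rho = -0.652, adjusted permutation p = 0.0264). The neuron and oligodendrocyte scores were themselves inversely related, with r = -0.587. With the dopamine neuron score, built from TH, SLC6A3 and 10 further markers, the largest r among members with a count in every animal was 0.353 for DYNC1I1 (n = 28, permutation p = 0.0634, adjusted p = 0.486). For the other scores no pair was called, except 1 with the proliferation score on variance stabilized counts, where 13 pairs were called in all. The nearest was DYNC1LI2 with proliferation markers (r = 0.591, permutation p = 0.00095, adjusted p = 0.0502), followed by KIF3B with ciliated cell markers (r = 0.566, adjusted p = 0.0835) and KIF21B with endothelial markers (r = 0.674, adjusted p = 0.0902). The r of KIF21B was 0.343 without the 2 farthest animals.

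**Figure D4:**
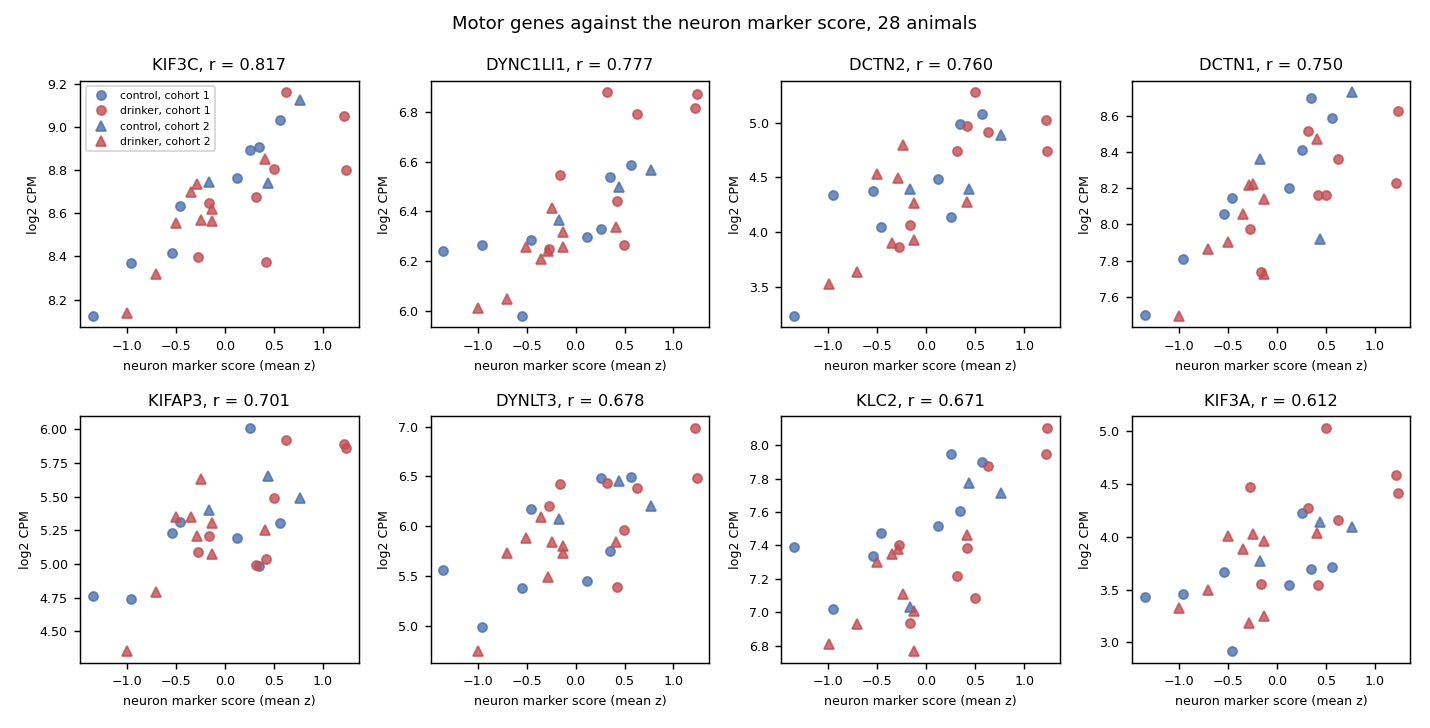
Log2 CPM of the 8 motor genes called with the neuron marker score, plotted against that score in 28 animals, with colour for group and marker shape for cohort. Higher scores go with higher levels in each panel, from r = 0.817 for KIF3C to r = 0.612 for KIF3A.

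Between the cohorts, with group in the model, none of 66 members was called (0.0436% of all transcripts were), and 9 had an unadjusted p under 0.05 against 9.8% of all. DESeq2 called 3 (0.879% of all transcripts) and limma-voom 0, and the 3 (KIF5A, KIF13B and DYNC2H1) were listed at 0 in most animals. KIF1A had 167, 195 and 228 CPM (lowest, median, highest) in cohort 2 and 113, 162 and 208 in cohort 1. Its log2 fold change was 0.23 ± 0.09 (unadjusted p = 0.013, adjusted p = 0.305). DYNC1I2 (-0.72 ± 0.31) and DYNC1LI1 (-0.20 ± 0.09) were lower in cohort 2 by the estimate, and KIF21B (0.58 ± 0.27) and KIF11 (0.73 ± 0.33) higher. Among controls alone, the mean of DYNC1LI1 was 80.1 CPM in cohort 1 and 89.1 in cohort 2 and that of KIF21B 85.3 and 73.0, the opposite order to the drinkers' 98.9 and 75.3 for DYNC1LI1 and 49.6 and 95.7 for KIF21B.

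Drinking category was examined against the same 11 controls. Very heavy drinkers gave 0 called members (0% of all transcripts) and 3 at an unadjusted p under 0.05 against 4.47%, while DESeq2 called 1, DYNC2H1 (0.203% of all transcripts), and limma-voom 0. DYNC2H1 was at 0 in 25 animals and passed the filter only through 3 very heavy drinkers, so this call decides nothing. Of the 3 members at an unadjusted p under 0.05, KIF3B was the 1 with a count in every animal. It stood at 51.5, 59.5 and 67.7 CPM in very heavy drinkers and 51.8, 67.6 and 76.9 in controls, a log2 fold change of -0.15 ± 0.06 (unadjusted p = 0.0207). Heavy drinkers gave 0 called members (0%) and 8 at an unadjusted p under 0.05 against 6.77%, while DESeq2 called 1, KIF21A (0.392% of all transcripts), and limma-voom 0. KIF21A was at 0 in all 5 heavy drinkers and in 10 of the 11 controls, with 94 counts in control 5. KIF3A stood at 16.3, 21.3 and 32.6 CPM in heavy drinkers, a log2 fold change of 0.73 ± 0.21 (unadjusted p = 0.0019). Of these 5 heavy drinkers 4 belong to cohort 1, so category and cohort are not balanced. The estimates of KIFC2 (-0.30 ± 0.12), DYNC2I2 (-0.50 ± 0.21) and DYNLRB1 (-0.17 ± 0.07) were negative. Without drinker 6 that of DYNC2I2 was -0.32 (unadjusted p = 0.12) and that of KIFC2 -0.23 (unadjusted p = 0.0802), and without drinker 3 that of DYNLRB1 was -0.11 (unadjusted p = 0.153).

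A list of 42 adaptors and regulators of these motors, of which 37 passed the filter, had a median log2 fold change of -0.03 in cohort 1 and -0.05 in cohort 2. None was called by edgeR in the 7 comparisons as designed, and 1 of 36 was between the cohorts among drinkers alone, where 105 of 13195 transcripts were. In the interaction 8 of 37 had an unadjusted p under 0.05, 6 of them negative, against 9.62% of all transcripts. With GC correction it was 5 of 37 (7.55%), and with the neuron and oligodendrocyte scores as covariates 2 of 37 (5.35%), where the median of the list went from -0.06 to 0.05. The 8 included the actin-capping subunits of dynactin, CAPZA1 (-0.66 ± 0.19), CAPZA2 (-0.54 ± 0.19) and CAPZB (-0.47 ± 0.16), and PAFAH1B1 (-0.37 ± 0.11), the dynein regulator also known as LIS1. DESeq2 called 2 of the 37 in the interaction (0.937% of all transcripts), 3 of 36 within cohort 1 (1.8%) and 1 of 37 for heavy drinkers (0.392%), and limma-voom 0 in each.

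The remaining 30 kept members were listed at 0 in at least 1 animal, and 13 of them were at 0 in as many animals as not, or more. Because a row is 1 transcript, a 0 here says only that no reads were assigned to it, and no fold change is given for these genes. KIF5A, the kinesin-1 heavy chain restricted to neurons, was at 0 in 23 animals, while the others held 294 and 110 counts (controls) and 129, 552 and 730 counts (drinkers). DYNC2H1, the heavy chain of ciliary dynein, was at 0 in 25 animals and held 251, 646 and 393 counts in 3 very heavy drinkers. KIF1B, a kinesin-3 carrier of mitochondria and vesicles, held 74, 27 and 32 counts in 3 controls and 18, 7 and 5 in 3 drinkers, with 0 in all 9 very heavy drinkers.

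KIF13B, a kinesin-3 of membrane transport, held 78, 554, 66 and 157 counts in 4 cohort 1 controls and 0 in all 8 cohort 1 drinkers, while in cohort 2 it held 36 counts in 1 control and 34, 154, 28 and 106 in 4 drinkers. KIF21A, the paralog of KIF21B, held 94 counts in 1 cohort 1 control, was at 0 in the other 15 animals of cohort 1 and held 13, 63, 203 and 8 counts in 4 drinkers of cohort 2. KIF26B was at 0 in 13 animals, among them the 3 cohort 2 controls, and reached 416 counts. KIFC3, a minus-end kinesin of epithelial cells, was at 0 in 8 animals (7 of them in cohort 1) and reached 1170 counts. KLC4 was at 0 in 5 animals, KIF6 in 4 and KIF26A in 3, with medians of 227.5, 101.5 and 93.5 counts.

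**Figure D5:**
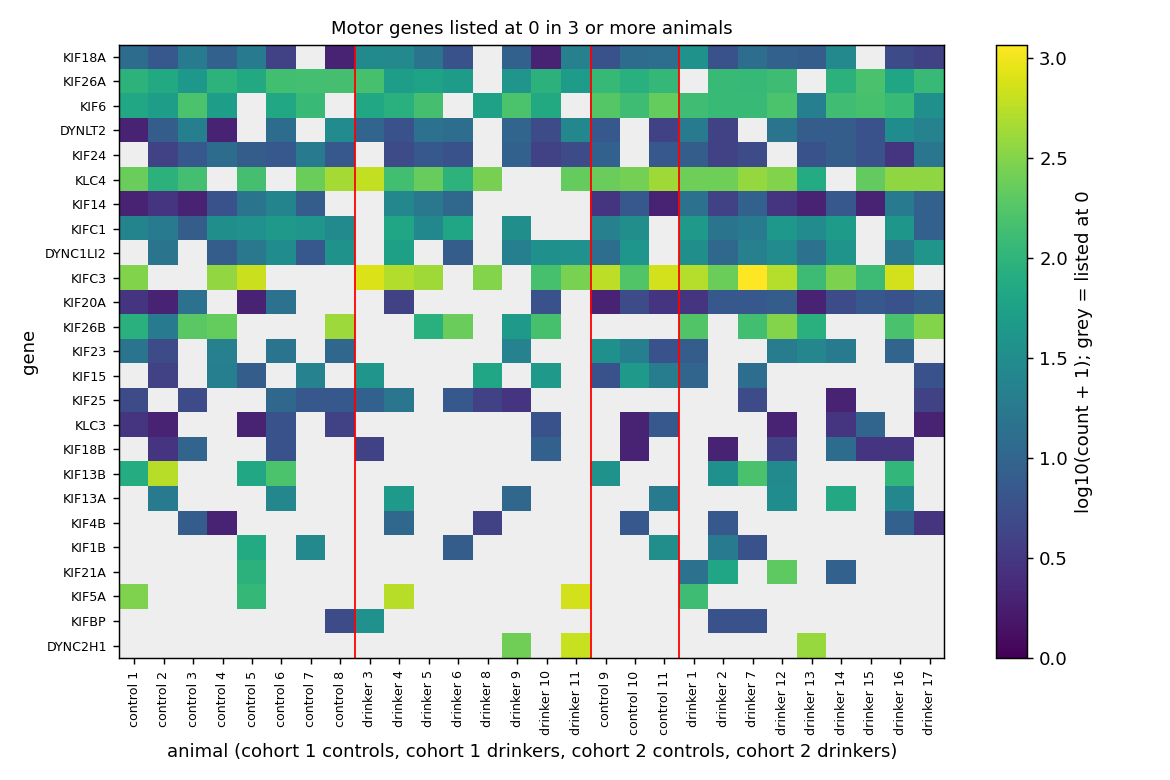
Counts, as log10(count + 1), of the 25 kept motor genes listed at 0 in 3 or more animals, with 1 column per animal in the order named on the axis, red lines between groups and grey for 0. Rows such as KIFC3 and KIF5A hold either 0 or over 100 counts among animals of the same group.

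At the edge of the filter, DYNC2H1 and KIFBP reached 5 counts in 3 animals, KIF18B and KLC3 in 4, and KIF4B, KIF5A and KIF21A in 5. Among those left out, KIF20B had 22 counts in 1 animal, KIF12 at most 2 and DYNLT4 at most 1. KIF1C, KIF2B and DYNC2LI1 were at 0 in all 28 animals. The number of kept members at 0 was 15.0 ± 2.51 (SD) in drinkers of cohort 1 and 11.4 ± 2.26 in its controls (exact permutation p = 0.0134, adjusted over 36 comparisons p = 0.149), and 9.89 ± 2.32 and 11.0 ± 0 in cohort 2 (exact permutation p = 0.541).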

How the data were processed

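Bulk RNA from VTA punches of 28 macaques was prepared with the Nugen Universal Plus mRNA kit per the labels. The authors trimmed reads (Trim Galore 0.6.7 in the submitters' processing notes) and quantified transcripts with Salmon 1.9.0, and they deposited estimated counts with 1 Ensembl transcript per gene symbol, on Mmul_10. DESeq2 1.36.0 is also named in those notes. The estimated counts were rounded to whole numbers here. The 1 row without a symbol (1.16e-05% of counts) was left out, and 0 columns were unmapped.

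Testing was restricted to transcripts reaching 5 counts in 3 or more animals, and used edgeR 4.0.16 (quasi-likelihood, TMM scaling, Benjamini-Hochberg over all transcripts, threshold 0.05) in R 4.3.3. Drinkers were compared with controls without covariates, cohorts were compared with group in the model, and the difference between cohorts was an interaction. The study's methods describe pairwise comparisons by BioJupies at default settings and state no covariate. DESeq2 1.42.0 and limma-voom (limma 3.58.1) were alternatives, beside other filters and scaling, animals left out, and GC and marker score corrections. Log2 CPM used a prior count of 2, and scores were mean z-scores. The SE of an edgeR fold change was derived as its absolute value over the square root of the quasi-likelihood F statistic. Lengths, GC content and sequences are from RefSeq. Statistics across transcripts were first tested on simulated counts with 200 planted changes. For drinkers against controls edgeR recovered 182 with 24 other calls, DESeq2 194 with 61 and limma-voom 178 with 6. In the interaction edgeR recovered 91, within cohort 1 146 and within cohort 2 93, so many planted changes were missed there. Each animal is 1 replicate.

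The members, marker lists and tests were chosen with earlier results of these data known. Genes named are a core transport set, members with an unadjusted p under 0.05 (at most the 8 lowest) or an adjusted p under 0.05, those nearest the filter or left out by it, those at 0 in at least 3 animals with 50 or more counts in at least 3 others, and the pairs with the largest r for each marker score. Some items are not reported here.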

Additional observations from a re-analysis of the deposited data

Results flagged for a closer look

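KIF21B in the drinkers of cohort 2 had 1 animal apart from the others: drinker 14 had 135.2 CPM and the next highest drinker 101.2. Its gap to the next animal over the range of the group was 0.594, and this was the 1 of 45 groups of values tested to stand apart, where chance flags about 1 in 20 groups.

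The drinkers' GC slope minus that of the controls was -0.129 log2 units per 10 percentage points in cohort 1 and 0.0165 in cohort 2, so that the size was larger in cohort 1, and cohort 2 minus cohort 1 gave 0.145 (permutation p = 0.0022). The drinking difference in the neuron marker score differed between the cohorts by -1.41 (permutation p = 0.00212), being positive in cohort 1 and negative in cohort 2.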

How the results depend on the processing

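The number of called members was 0 by edgeR under each filter, scaling and correction tried. DESeq2 called 3 members between the cohorts and 1 each in the interaction, within cohort 1, for very heavy and for heavy drinkers. Those between the cohorts and for both drinking categories were genes at 0 in most animals. The limma-voom fits called 0 members. Over all transcripts they called 23 between cohorts, 2 in the interaction, 3 in each cohort and 0 in the other comparisons. Each of the 28 animals was left out for drinkers against controls and between cohorts, each of 16 in cohort 1, the 3 controls of cohort 2 in the interaction and in cohort 2, the 5 heavy drinkers for heavy drinkers, and no animal for very heavy drinkers. The number called was then 0 (range 0 to 0), while members at an unadjusted p under 0.05 ranged from 0 to 3 for drinkers against controls, 3 to 12 between cohorts, 8 to 12 in the interaction, 7 to 12 in cohort 1, 2 to 8 in cohort 2 (2 without control 10) and 5 to 10 for heavy drinkers. Over all transcripts, the share at such a p was 3.84% to 5.05% for drinkers against controls and 8.48% to 11.9% between cohorts. It was 6.37% to 8.45% in the interaction and 8.6% to 10.9% in cohort 1. In cohort 2 it was 2.44% to 4.84% and for heavy drinkers 5.59% to 8.41%. Of 9 correlated pairs, 4 were called without the 2 farthest animals, 0 in cohort 1 alone and 1 in cohort 2 alone, while variance stabilized counts gave 13. Of 1061 fold changes under an alternative, 107 lost an unadjusted p under 0.05 and 16 gained one with the sign kept, 0 that had such a p at first changed sign, and 30 without it did. Among those 30, KLC2 in cohort 1 gained such a p with the marker covariates (-0.36, unadjusted p = 0.0301). Leaving out each animal, the cohort 1 fold change of KIF3A was 0.58 to 0.83 and that of KIF21B -0.98 to -0.61. No paired analysis was possible because the labels give no replicate numbers that groups share. The 3 controls of cohort 2 limit every comparison within it, and a count of 0 for 1 transcript does not limit the level of its gene.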
